A study of Oryza sativa Japonica Group with 6 samples.

Results

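The genes described here are 7 core genes of the rice circadian clock, LHY, PRR73, PRR37, PRR95, GI, PRR1 and PCL1, measured in rice plants (Oryza sativa, Japonica Group) whose level of the splicing factor gene OsSKIPa had been altered. They were chosen by gene, through 1 main probe set for each, and every further probe set assigned to the same genes was added, which gave 10 of the 57381 probe sets on the array. The 6 arrays form 3 groups of 2: transgenic plants that overexpress OsSKIPa (labelled S58S, replicates 1 and 2), transgenic plants with OsSKIPa suppressed (labelled S59R, replicates 1 and 3), and wild-type plants of the cultivar Zhonghua11 (replicates 1 and 2). The transgenic seedlings were selected with 50 mM hygromycin for overexpression or 50 mM G418 for suppression, so line and drug cannot be told apart. All plants were moved to hydroponic culture at 10 days and collected at 1 month. The design text of the series names more suppression and wild-type replicates than the arrays available here. The labels do not give the promoter of either transgene, the number of independent lines or the time of day of collection, and the number of arrays limits the precision of every value.

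The plant circadian clock is a set of transcription factors and associated proteins that repress and activate each other in turn over the day. LHY, a MYB factor whose transcript peaks around dawn, represses genes expressed in the evening. The pseudo-response regulators (PRR proteins) follow in sequence through the day and, in Arabidopsis, repress LHY and its partner, PRR1 being the rice counterpart of Arabidopsis TOC1. GI, the GIGANTEA protein, peaks toward dusk and links the clock to flowering. PCL1 is the rice counterpart of Arabidopsis LUX, a DNA-binding member of the evening complex. Because these transcripts cycle, an array made at a single harvest reads a level at that moment and not a rhythm. In Arabidopsis, the SKIP protein is known for a role in the splicing of clock gene transcripts. Probe set signals do not measure splicing.

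Each of the 7 main probe sets lay far above the array medians, which ranged from 58.6 to 66.2 on the deposited linear signal scale, and their lowest signal in any array was 1331.2. Of the 3 further probe sets, those of PRR37 and PRR73 were bright enough to be tested, and the one of LHY was not, so that 9 of 10 were tested. Across tested probe sets, Pearson's r of log2 signals was 0.971 to 0.973 between arrays of the same group and 0.951 to 0.971 between arrays of different groups (probe sets are not independent replicates). Sample descriptions name shoots as the material, and the growth protocol names whole plants. Of 6 green-shoot marker genes, 5 lay above the array median in every array, with a summed signal of 100234 and 108242 in overexpression, 107827 and 91821.8 in suppression, and 105881 and 110039 in the wild type. RBCS1 was near 0, at 2.6 to 18. Of 6 root marker genes, 5 lay above the array median in every array, among them the silicon transporter gene LSI1, and PHT1;6 was below it, at 3.6 to 35.3. The summed root-marker signal was 6544.5 and 7862.9 in overexpression, 11657 and 8634.2 in suppression, and 12049.3 and 8302.2 in the wild type. LSI1 alone made up most of this sum in every array, so the sum mainly follows that gene. Its signal was 3662.3 and 4646.8 in overexpression, 7278.2 and 5456.7 in suppression, and 7418.7 and 4743.7 in the wild type. In whole plants, fewer cells of a type and less RNA per cell cannot be told apart.

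LHY, the dawn gene, was lower in the suppression plants and PCL1, the evening gene, was higher there, and both differed between the transgenic lines by a larger margin. No clock gene differed from the wild type past the threshold in the overexpression plants. The 3 day-to-dusk PRR genes, GI and PRR1 passed in no comparison. Tests were made with limma on log2(signal + 3.3). The Benjamini-Hochberg adjustment covered the whole array (30322 probe sets bright enough to test), and a probe set passed at an adjusted p under 0.05. The LHY and PCL1 calls in suppression against the wild type depended on single arrays. No LHY or PCL1 call, including those between the lines, was kept with a variance prior that ignores signal level.

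**Figure D1:**
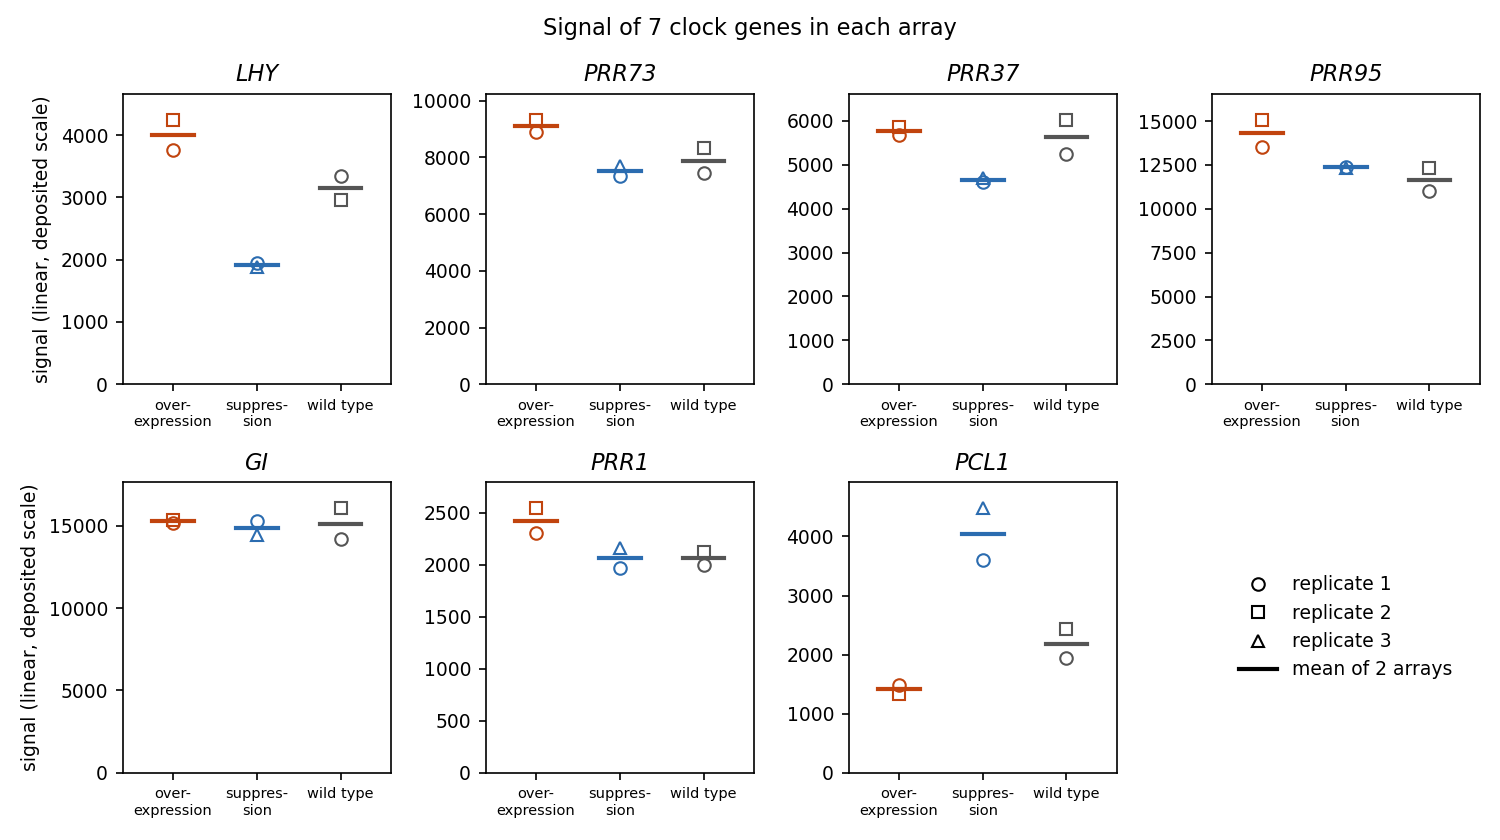
Signal (vertical axis, linear deposited scale, from 0) of the main probe set of each clock gene in each of the 6 arrays, by group (horizontal axis). Symbols mark the replicate and bars the mean of 2 arrays. LHY is lowest in suppression at 1941.8 and 1886.3, PCL1 is highest there at 3602.2 and 4474.3, and the GI arrays of the 3 groups overlap.

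LHY (LOC4344703 in the gene table) had a signal of 3764.2 and 4242.5 in the overexpression plants, 1941.8 and 1886.3 in the suppression plants, and 3339.4 and 2955.5 in the wild type. The 3 groups did not overlap, with the suppression arrays lowest and the overexpression arrays highest. In suppression the mean was 1914 ± 39.2, against 3147 ± 271 in the wild type (n = 2 each, SD), which is 0.608 times the wild-type level. On the log2 scale LHY fell by 0.71 ± 0.11 (SE; limma adjusted p = 0.0158), with a 95% confidence interval of -0.96 to -0.47. The nearest arrays of these groups were 1.52-fold apart. This call was lost when any 1 suppression or wild-type array was left out, with log2 fold changes of -0.80 to -0.63 and adjusted p of up to 0.111, and also with a variance prior that ignores signal level (adjusted p = 0.141).

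In the overexpression plants LHY had a mean of 4003 ± 338, against 3147 ± 271 in the wild type (n = 2 each, SD). The log2 fold change of 0.35 ± 0.11 did not pass (limma adjusted p = 0.617; unadjusted p = 0.0112), and its 95% interval was 0.10 to 0.59. Both overexpression arrays were above both wild-type arrays, the nearest 1.13-fold apart. The further LHY probe set read 2.2 and 2.5 in overexpression, 3.1 and 1.8 in suppression, and 5.5 and 4.2 in the wild type. All of these lie far below the array medians, so this probe set gave no usable level and was not tested.

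PCL1 (LOC4326391) ran the other way from LHY in each line. Its signal was 1492.5 and 1331.2 in the overexpression plants, 3602.2 and 4474.3 in the suppression plants, and 1941.3 and 2430.5 in the wild type. Again the groups did not overlap, here with suppression highest and overexpression lowest. In suppression its mean was 4038 ± 617, against 2186 ± 346 in the wild type (n = 2 each, SD), a 1.85-fold difference. The log2 fold change was 0.89 ± 0.15 (SE; limma adjusted p = 0.026), with a 95% interval of 0.54 to 1.23. The nearest arrays were 1.48-fold apart. PCL1 kept this call without suppression replicate 1 (log2 fold change 1.04, adjusted p = 0.0432), and lost it without suppression replicate 3 (0.73, adjusted p = 0.106), wild-type replicate 1 (0.72, adjusted p = 0.139) or wild-type replicate 2 (1.05, adjusted p = 0.0637), and with the prior that ignores signal level (adjusted p = 0.166).

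In the overexpression plants PCL1 averaged 1412 ± 114, against 2186 ± 346 in the wild type (n = 2 each, SD), or 0.646 times the wild-type level. The log2 fold change was -0.62 ± 0.15 with a 95% interval of -0.97 to -0.28, and it did not pass after adjustment over all probe sets (limma adjusted p = 0.479; unadjusted p = 0.00293). The overexpression arrays lay below both wild-type arrays, the nearest 1.30-fold apart. The groups likewise did not overlap for 38.1% of all tested probe sets in this comparison. With each array left out in turn, the estimate lay between -0.78 and -0.46 and did not pass.

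The direct comparison of the transgenic lines gave the largest differences of LHY and PCL1, and it does not use the wild-type levels. LHY was 2.09-fold higher in overexpression than in suppression, or by 1.06 ± 0.11 on the log2 scale (SE; limma adjusted p = 0.00194), with a 95% interval of 0.82 to 1.31. PCL1 was at 0.35 times its suppression level in overexpression, and the log2 fold change, -1.51 ± 0.15 (limma adjusted p = 0.00188), had a 95% interval of -1.85 to -1.17. The nearest arrays of the lines were 1.94-fold apart for LHY and 2.41-fold apart for PCL1. With each overexpression or suppression array left out in turn, the log2 fold changes were 0.97 to 1.15 for LHY and -1.66 to -1.35 for PCL1. Leaving out a wild-type array cannot change these estimates. Both calls missed the threshold with the prior that ignores signal level, at a limma adjusted p of 0.0604 for LHY and 0.0603 for PCL1.

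**Figure D2:**
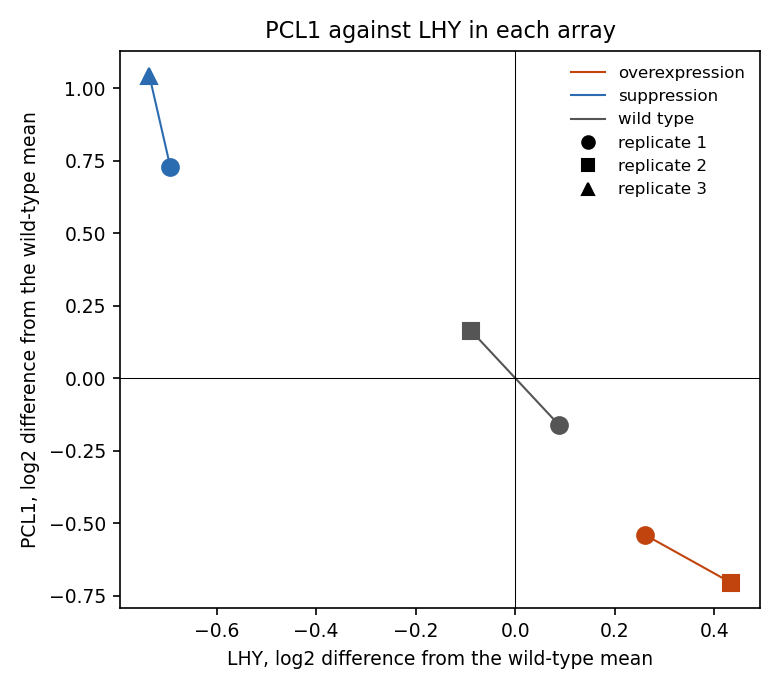
Log2 difference of PCL1 (vertical axis) and LHY (horizontal axis) from the wild-type mean in each of the 6 arrays, with a line joining the 2 arrays of a group. Suppression lies at low LHY and high PCL1, overexpression at high LHY and low PCL1, and the 2 arrays of each group differ in opposite directions for the 2 genes. For LHY in suppression that difference is -0.042, far smaller in size than the median of 0.20 over all tested probe sets.

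Between the 2 arrays of each group, LHY and PCL1 also differed with opposite signs, which are 3 sign comparisons and no test. Overexpression replicate 2 was higher than replicate 1 by 0.17 for LHY and differed by -0.16 for PCL1 on the log2 scale. Suppression replicate 3 differed from replicate 1 by -0.042 for LHY and by 0.31 for PCL1. Wild-type replicate 2 differed from replicate 1 by -0.18 for LHY and by 0.32 for PCL1. The median absolute difference between arrays of a group over all tested probe sets was 0.18 to 0.20, so the replicate differences of LHY were no larger than that of a typical probe set, the one in suppression being far smaller, and those of PCL1 were larger in suppression and in the wild type. With PCL1 taken relative to LHY within each array, and set against the wild-type mean, the log2 values were -0.80 and -1.14 in overexpression, 1.42 and 1.78 in suppression, and -0.25 and 0.25 in the wild type. The arrays of the 3 groups did not overlap on that scale. That follows from the opposite and non-overlapping group orders of LHY and PCL1, so it is no separate support.

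PRR73 (LOC4332464) and PRR37 (LOC4344399) encode day-phase regulators, and PRR37 also delays flowering in long days. PRR73 read 8881.9 and 9317.3 in overexpression, 7349.6 and 7676.8 in suppression, and 7458.6 and 8315.5 in the wild type. Only the overexpression arrays stood clear of the other groups, and the suppression and wild-type arrays overlapped. The log2 fold change was 0.21 ± 0.085 in overexpression against the wild type (SE; limma adjusted p = 0.692; 95% interval 0.013 to 0.40) and -0.07 ± 0.085 in suppression against the wild type (adjusted p = 0.731; 95% interval -0.26 to 0.13). Between the lines PRR73 was 1.21-fold higher in overexpression, which did not pass (log2 fold change 0.28, limma adjusted p = 0.0958).

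PRR37 read 5686.4 and 5855.6 in overexpression, 4607.9 and 4702.9 in suppression, and 5239.8 and 6023.5 in the wild type. Here the suppression arrays were the low ones, and the overexpression arrays fell within the wild-type range. Its log2 fold change in suppression against the wild type was -0.27 ± 0.093 (SE; limma adjusted p = 0.185; 95% interval -0.48 to -0.058). In overexpression against the wild type it was 0.039 ± 0.093 (adjusted p = 0.96; 95% interval -0.17 to 0.25). The difference between overexpression and suppression, 1.24-fold, did not pass (log2 fold change 0.31, limma adjusted p = 0.0894).

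The further probe sets of these genes were read beside the main ones. The one of PRR37 was at 769.8 and 851.3 in overexpression, 644.1 and 474.5 in suppression, and 753.7 and 725.7 in the wild type. It had the same order of groups as the main probe set, with log2 fold changes of 0.13 in overexpression against the wild type, -0.42 in suppression against the wild type and 0.55 in overexpression against suppression (limma adjusted p = 0.903, 0.241 and 0.0927). The one of PRR73 was at 2057.2 and 1876.2 in overexpression, 1890.8 and 1684.5 in suppression, and 2302.9 and 2220.8 in the wild type. Both transgenic lines lay below the wild type, with log2 fold changes of -0.20 in overexpression and -0.34 in suppression (limma adjusted p = 0.755 and 0.154). The probe sets of PRR73 therefore differed in sign for overexpression against the wild type.

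With the main probe set of PRR73 taken relative to its further one, and set against the wild-type mean, the log2 values were 0.31 and 0.51 in overexpression, 0.16 and 0.39 in suppression, and -0.10 and 0.10 in the wild type. All 4 transgenic arrays were above both wild-type arrays. The difference was 0.41 in overexpression and 0.27 in suppression against the wild type (exact permutation test, two-sided, p = 0.333 for each, the smallest that 2 arrays against 2 allow). For PRR37 the same values were -0.040 and -0.14 in overexpression, -0.087 and 0.38 in suppression, and -0.13 and 0.13 in the wild type, and the groups overlapped. Which transcripts each probe set reads is not stated in the labels or files.

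**Figure D3:**
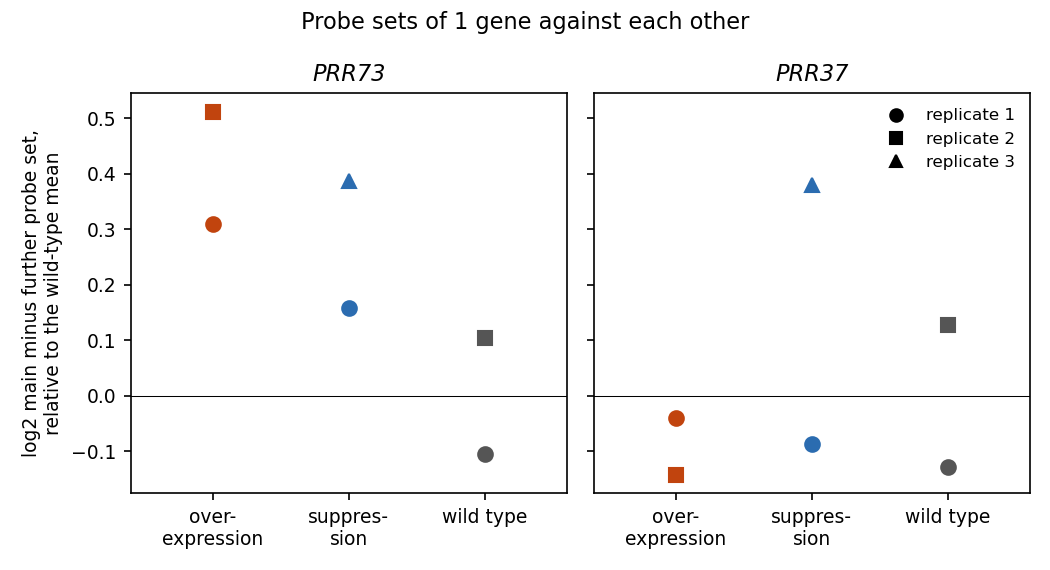
Log2 signal of the main probe set minus that of the further probe set of the same gene, relative to the wild-type mean (vertical axis), in each of the 6 arrays by group, for PRR73 (left) and PRR37 (right). For PRR73 the transgenic arrays lie at 0.16 to 0.51, above the wild-type arrays at -0.10 and 0.10, and for PRR37 the groups overlap.

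PRR95 (LOC4347674), a later member of the PRR sequence, read 13551.9 and 15069 in overexpression, 12406.2 and 12352.9 in suppression, and 10993.4 and 12325.5 in the wild type. The overexpression arrays were highest, and suppression replicate 3 was only 1.002-fold above wild-type replicate 2. The log2 fold change was 0.30 ± 0.087 in overexpression against the wild type (SE; limma adjusted p = 0.605; unadjusted p = 0.0091; 95% interval 0.096 to 0.50). It was 0.089 ± 0.087 in suppression against the wild type (adjusted p = 0.65; 95% interval -0.11 to 0.29), and 0.21 in overexpression against suppression (adjusted p = 0.201).

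GI (LOC4325329) read 15199.3 and 15383.5 in overexpression, 15316 and 14425.5 in suppression, and 14212.2 and 16065.1 in the wild type. Every array of the transgenic lines fell between the wild-type arrays. Its means were 15291 ± 130.2 in overexpression, 14871 ± 629.7 in suppression and 15139 ± 1310.2 in the wild type (n = 2 each, SD). The 95% interval of its log2 fold change was -0.17 to 0.20 for overexpression against the wild type, -0.21 to 0.16 for suppression against the wild type, and -0.15 to 0.23 for overexpression against suppression (limma adjusted p = 0.983, 0.914 and 0.814).

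PRR1 (LOC4330000), the rice counterpart of TOC1, read 2303 and 2539.3 in overexpression, 1966.2 and 2158 in suppression, and 1998.7 and 2122.4 in the wild type. The suppression arrays surrounded the wild-type ones, and the overexpression arrays were above both. The log2 fold change was 0.23 ± 0.11 in overexpression against the wild type (SE; limma adjusted p = 0.718; 95% interval -0.012 to 0.47) and 0.00017 ± 0.11 in suppression against the wild type (adjusted p = 0.999; 95% interval -0.24 to 0.24). In overexpression against suppression it was 0.23 (adjusted p = 0.237). PRR1 and PCL1 are both evening genes, and in the suppression plants the 95% intervals of their changes, -0.24 to 0.24 for PRR1 and 0.54 to 1.23 for PCL1, did not overlap, although the difference between the genes was not tested.

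**Figure D4:**
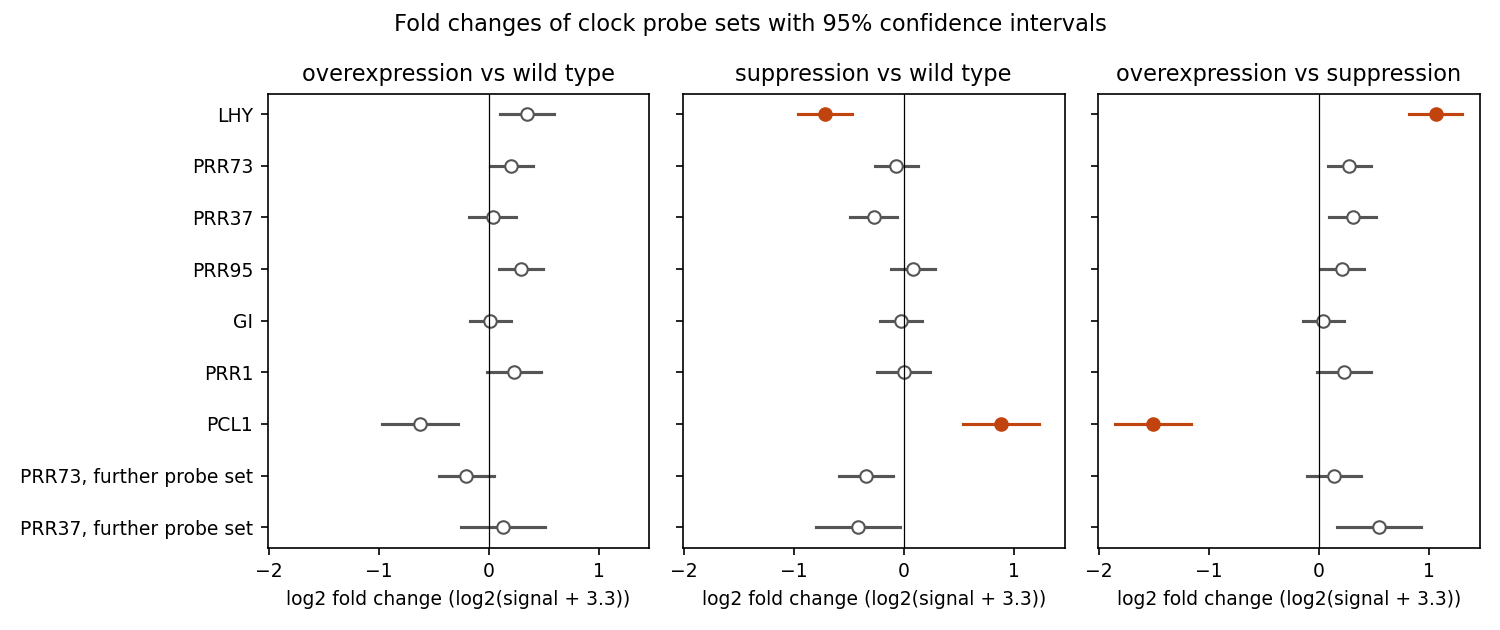
Log2 fold change (horizontal axis, on the log2(signal + 3.3) scale) with its 95% confidence interval for each tested clock probe set (rows) in the 3 comparisons. Filled points passed the adjusted threshold of 0.05: LHY at -0.71 and PCL1 at 0.89 in suppression against the wild type, and LHY at 1.06 and PCL1 at -1.51 in overexpression against suppression.

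Counted together, 0 of the 7 main probe sets passed in overexpression against the wild type, where 0.0495% of all tested probe sets passed (0.0396% higher and 0.00989% lower), and 4 of 7 had an unadjusted p under 0.05 (7.12% of all tested). In suppression against the wild type 1 rose and 1 fell and 5 did not pass, where 2.3% of all tested probe sets passed (0.956% higher and 1.35% lower). An unadjusted p under 0.05 was reached by 3 of 7 there (17.8% of all tested). In overexpression against suppression 1 was higher, 1 was lower and 5 did not pass, where 6.56% of all tested probe sets passed (3.63% higher and 2.93% lower), and 5 of 7 had an unadjusted p under 0.05 (23.1% of all tested). The groups did not overlap for 5 of 7 in overexpression against the wild type, 4 of 7 in suppression against the wild type and 6 of 7 in overexpression against suppression, where the same held for 38.1%, 48.8% and 53.5% of all tested probe sets. The median log2 fold change of the 7 was 0.21, -0.024 and 0.23 in these comparisons, against -0.0053, -0.015 and 0.0082 over all tested probe sets. The comparisons of the lines with the wild type share the same 2 wild-type arrays.

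The size of the change of each main probe set was also placed among all tested probe sets. In overexpression against the wild type, 20.5% of them had a larger absolute log2 fold change than LHY and 7.70% a larger one than PCL1. In suppression against the wild type, 9.89% of tested probe sets had a larger absolute log2 fold change than LHY and 6.39% a larger one than PCL1. In overexpression against suppression these shares were 5.17% for LHY and 2.25% for PCL1. For GI they were 93.4% in overexpression against the wild type, 93.6% in suppression against the wild type and 90.6% in overexpression against suppression. Among PRR1, PRR73, PRR37 and PRR95 they ran from 25.4% (PRR95) to 85.2% (PRR37) in overexpression against the wild type. In suppression against the wild type the range was 40.1% (PRR37) to 99.96% (PRR1). Between overexpression and suppression it was 40.1% (PRR37) to 56.1% (PRR95).

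Some RNA quality readings and marker genes differed between groups beside these results. The signal of the 18S rRNA control probe set was 5450.5 and 4992.2 in overexpression, 3673.9 and 3885.3 in suppression, and 4949.6 and 5132.3 in the wild type, so that it was lowest in the plants with low LHY and high PCL1. The 3' to 5' signal ratio of the actin control was 3.43 and 3.73 in overexpression, 2.82 and 2.89 in suppression, and 2.86 and 2.75 in the wild type. The GAPDH control ratio was 2.19 and 1.89 in overexpression, 1.66 and 1.90 in suppression, and 1.87 and 1.81 in the wild type, and its groups overlapped. Of the 10 tested shoot and root marker genes, 0 passed against the wild type in either line by limma. An unadjusted p under 0.05 was reached by 3 in overexpression and 5 in suppression (7.12% and 17.8% of all tested probe sets). In overexpression against suppression 2 were higher and 1 lower, and 7 did not pass (6.56% of all tested probe sets passed). There 7 of the 10 had an unadjusted p under 0.05, among them all 5 tested root markers (23.1% of all tested probe sets). Root markers went both ways there: AMT1-2, an ammonium transporter gene, was lower (log2 fold change -2.54, limma adjusted p = 0.00242), and IRT1, an iron transporter gene, was higher (1.36, adjusted p = 0.0199). The third was the green-shoot gene RCA, of Rubisco activase, which was higher (0.37, adjusted p = 0.0266). The dimmer probe sets of RCA were also higher (0.50, 0.42 and 0.54) but did not pass (limma adjusted p = 0.139, 0.264 and 0.139). AMT1-2 read 124.6 and 232 in overexpression, 1122.1 and 905.9 in suppression, and 517.8 and 550.8 in wild-type plants, in the group order of PCL1. IRT1 read 211.3 and 295.7 in overexpression, 87.9 and 103.3 in suppression, and 187.4 and 205.9 in wild-type plants, in the group order of LHY. The part of these differences in the clock gene results was not tested.

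Beyond the 7 genes, 77 names of clock, light input and flowering genes were looked up, 2 of which belonged to other genes in the gene table and were left out. The names led to 19 genes with a probe set, all bright enough to test. In overexpression against the wild type 0 of 19 passed by limma (0.0495% of all tested probe sets), with 3 at an unadjusted p under 0.05 (7.12% of all tested). In suppression against the wild type 0 rose, 1 fell and 18 did not pass (2.3% of all tested passed), with 7 at an unadjusted p under 0.05 (17.8%). In overexpression against suppression 2 were higher, 0 were lower and 17 did not pass (6.56% of all tested passed), with 5 at an unadjusted p under 0.05 (23.1%). The median log2 fold change of the 19 was -0.051, -0.30 and 0.22 in these comparisons, against -0.0053, -0.015 and 0.0082 over all tested probe sets.

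The members that passed belong to light input. PHOT1A, the gene of a phototropin, which senses blue light, read 3906.8 and 4023.1 in overexpression, 1367.7 and 1494.7 in suppression, and 3009.2 and 3175.4 in wild-type plants. Its groups stood in the order seen for LHY. It fell by 1.11 ± 0.097 on the log2 scale in suppression against the wild type (limma adjusted p = 0.00216) and was 1.47 ± 0.097 higher in overexpression than in suppression (adjusted p = 0.00054). PHYA, the far-red light receptor gene phytochrome A, read 2587.8 and 2074.4 in overexpression, 1255.9 and 1535.4 in suppression, and 1801.7 and 1854.1 in the wild type. It was higher in overexpression than in suppression (log2 fold change 0.74 ± 0.14, limma adjusted p = 0.0243), and its difference in suppression against the wild type did not pass with this probe set (-0.40, adjusted p = 0.205). With a dimmer probe set of PHYA it did (-0.78, limma adjusted p = 0.0227). PHYB, PHYC, PHOT2 and SE5 passed in no comparison.

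Of the 11 genes grouped under flowering, 0 passed by limma in any comparison. Unadjusted p was under 0.05 for 1 in overexpression against the wild type, 4 in suppression against the wild type and 1 in overexpression against suppression, where 7.12%, 17.8% and 23.1% of all tested probe sets reached it. HD1, the rice counterpart of Arabidopsis CONSTANS, which is controlled through GI, was at 90.6 and 68.7 in overexpression, 61.5 and 76.9 in suppression, and 78.1 and 95.2 in the wild type. Its log2 fold change was -0.12 in overexpression and -0.31 in suppression against the wild type (limma adjusted p = 0.971 and 0.713), and the signals are close to the array median. MADS15, a meristem identity gene picked after its values were seen, ranged widely: 36.9 and 219.7 in overexpression, 151.5 and 10.8 in suppression, and 524.7 and 182.4 in the wild type. The replicates of each group differed too widely for a call (log2 fold change -2.74 ± 1.15 in suppression against the wild type, adjusted p = 0.263). XCT and HD16, which were grouped with the clock itself, had log2 fold changes between -0.15 and 0.10 and did not pass.

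**Figure D5:**
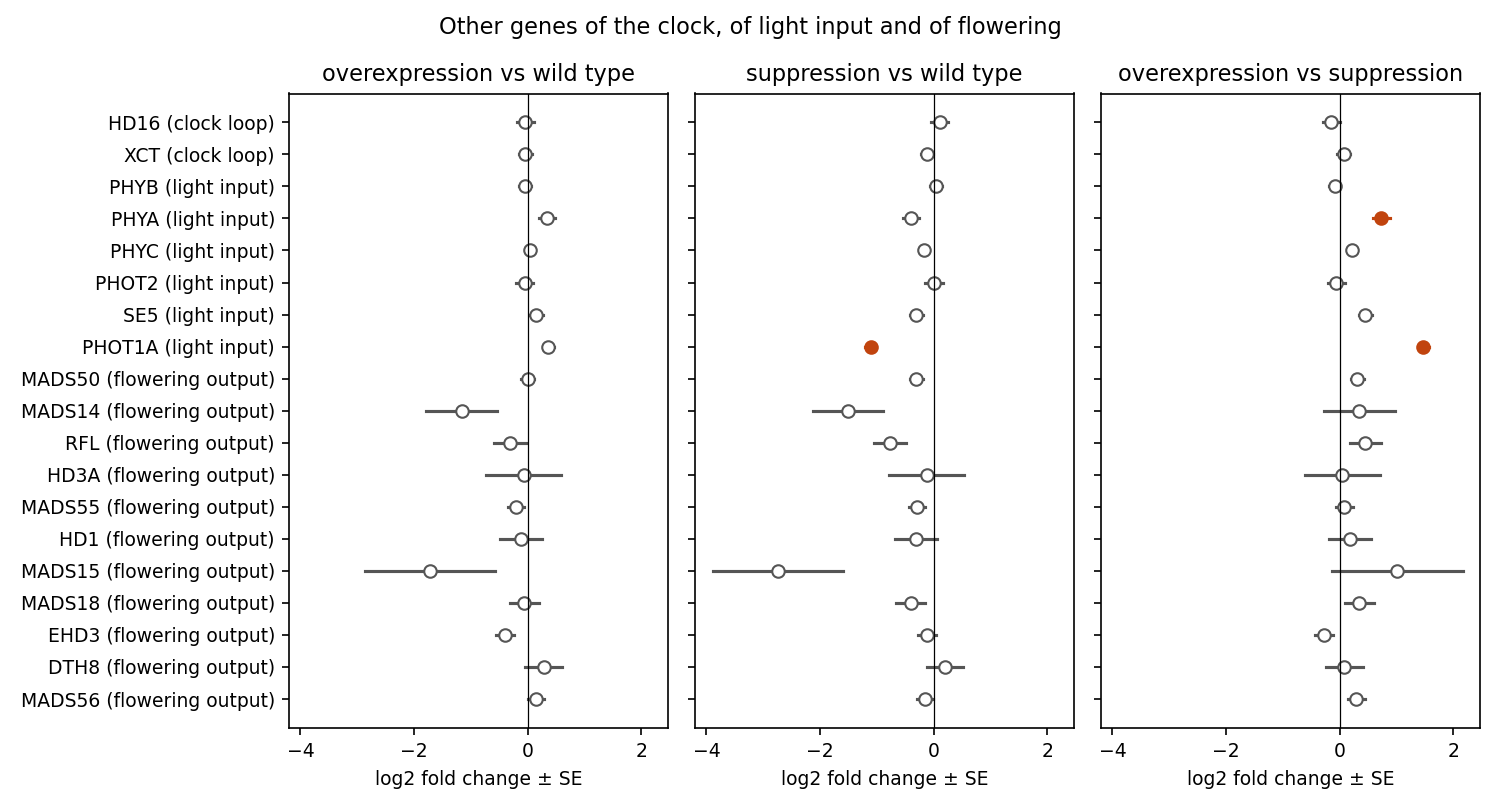
Log2 fold change with its SE (horizontal axis) for 19 further genes of the clock, of light input and of flowering (rows, 1 probe set per gene), in the 3 comparisons. Filled points passed the adjusted threshold of 0.05: PHOT1A at -1.11 in suppression against the wild type, and PHOT1A at 1.47 and PHYA at 0.74 in overexpression against suppression.

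The genes whose levels over the 6 arrays were most like those of LHY and PCL1 were sought among 2767 tested probe sets with a gene name. Likeness was the root mean square difference of log2 values after the mean of each probe set was removed, and 0 would be an identical course. For LHY, probe sets of GLN2 (a glutamine synthetase gene), IRL5 and SAP7 came closest, at 0.099, 0.10 and 0.11, where the median over all candidates was 0.49. Their log2 fold changes in suppression against the wild type were -0.87 for GLN2, -0.94 for IRL5 and -0.62 for SAP7. Between overexpression and suppression they were 1.20, 1.20 and 1.01. These genes were picked for their likeness over the same arrays, so the values are a description without a test. SAP7 was dim, with mean signals near the array medians (114.25 in overexpression, 54.95 in suppression and 85.75 in the wild type). For PCL1 the closest were AMT3-2, an ammonium transporter gene, at 0.15, APX2, an ascorbate peroxidase gene, at 0.16, and SPX4 at 0.25, where the median was 0.65. Their log2 fold changes, likewise without a test, were 0.86, 1.00 and 0.68 in suppression against the wild type and -1.31, -1.44 and -1.06 in overexpression against suppression. SPX4 was also dim, with mean signals of 49.95 in overexpression, 107.4 in suppression and 65.95 in the wild type. Among the clock genes themselves, PRR73 and PRR1 were the closest pair of main probe sets, at 0.046. Neither passed in any comparison, and the median over all candidates was only 0.23 for PRR73 and 0.22 for PRR1. Genes outside the clock came closer to each, at 0.042 for PRR73 and 0.031 for PRR1, so the pair does not stand out. The nearest clock probe set to LHY was the further one of PRR37, at 0.24. The nearest to PCL1 was GI, at 0.65, no closer than a typical gene.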

How the data were processed

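Total RNA (6 µg) was extracted with TRIzol and labelled as biotinylated cRNA for Affymetrix rice arrays, per the labels' protocols. Per array, the authors deposited a linear signal intensity of 57381 probe sets. No label or file header names the summarising software. The largest ratio of array medians was 1.13, so the deposited scale was kept.

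Values were tested as log2(value + 3.3), 3.3 being the 10th percentile of all values. The 123 manufacturer controls were left out. Testing required a signal above the array's own median in 2 or more of 6 arrays (30322 tested, 26936 not). limma 3.58.1 in R 4.3.3 fitted the 3 groups (lmFit, eBayes with a variance trend, 3 residual and 5.20 prior degrees of freedom, two-sided). The test was tried on simulated data. Confidence intervals are limma's, at 95%, and not adjusted for the number of tests.

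Gene names came from GEO's platform annotation, updated through RefSeq genes of assembly ASM3414082v1, of which no coordinates were used. The 7 members, the list of further genes and the rules for naming were chosen with earlier results of these data known. The rules name all probe sets of the members, pathway genes that passed in any comparison, HD1, and the 3 most alike named genes (clone names not counted) of each member that passed. In the pathway list, 1 probe set stood for a gene, the brightest. EHD3 was counted with flowering and SE5 with light input, by their known roles. The labels call the arrays of each group biological replicates. Overexpression and wild-type arrays of the same replicate number did not deviate together (correlation of deviations -0.015), so they were not treated as pairs. The alternatives tried were quantile normalization, pseudocounts of 1 and 16, no filter on dim probe sets, no variance trend, a fit of only the groups compared, a replicate block and leaving out each array.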

Additional observations from a re-analysis of the deposited data

Results flagged for a closer look

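LHY and PCL1 are listed here because the effects of the transgenic lines, each taken against the wild type, differ by a test of the difference itself, the comparison of overexpression with suppression. The difference was 1.06 on the log2 scale for LHY (limma adjusted p = 0.00194), with estimates against the wild type of 0.35 in overexpression and -0.71 in suppression. It was -1.51 for PCL1 (limma adjusted p = 0.00188), with -0.62 in overexpression and 0.89 in suppression. Groups of 2 arrays are too small to ask whether a single array stands apart.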

How the results depend on the processing

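Without the variance trend, 0 clock genes passed in suppression against the wild type and 0 in overexpression against suppression, where 2 had passed in each, and over all probe sets 0, 26 and 70 passed in overexpression against the wild type, suppression against the wild type and overexpression against suppression, in place of 15, 698 and 1990. With 1 array left out, 0 to 2 clock genes passed in suppression against the wild type, 2 in each fit of overexpression against suppression and 0 in each fit of overexpression against the wild type, and over all probe sets 171 to 583, 463 to 1410 and 5 to 36 passed. With no filter, 425 probe sets passed in suppression against the wild type and 1255 in overexpression against suppression, and LHY and PCL1 kept their calls there. Quantile normalization, pseudocounts of 1 and 16 and fits of the 2 groups compared changed no call of a clock gene. With the replicate block, which was possible only for overexpression against the wild type, 0 clock genes passed, and 11 probe sets in all. No paired analysis was possible for the other comparisons because their groups share fewer than 2 replicate numbers.

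Estimates near 0 changed sign in fits without 1 array. In overexpression against the wild type, GI read -0.071 and PRR37 -0.062 without wild-type replicate 1 (highest 0.11 and 0.14, without wild-type replicate 2). In suppression against the wild type, PRR1 read -0.067 without suppression replicate 3 and -0.043 without wild-type replicate 1 (highest 0.067), GI read 0.020 without suppression replicate 3 and 0.065 without wild-type replicate 2 (lowest -0.11), and PRR73 read 0.010 without wild-type replicate 2 (lowest -0.15). In overexpression against suppression, GI read -0.0023 without suppression replicate 3 (highest 0.084). The cause of these shifts was not tested. LHY and PCL1 kept their direction in every fit of every comparison.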
